A study of Mus musculus with 6 samples.

Results

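The genes described here encode the proteins of the mitochondrial ribosome, measured in megakaryocyte-erythroid progenitors (MEP) from mouse bone marrow. A gene was taken where a probe set of the array carried a single symbol of the form Mrpl or Mrps followed by a number, with pseudogenes left out, and the probe set of highest mean over the 6 arrays stood for the gene. The rule found 71 genes of 22180 genes with a probe set of their own, 43 with an Mrpl symbol and 28 with an Mrps symbol. A further 7 symbols of this form, among them Mrpl41, Mrpl44 and Mrps6, occurred only on probe sets shared with another gene and were not analysed here. Each genotype, T-bet knockout and wild type, had 3 arrays of C57BL/6 mice, and the series' design gives a different mouse for each array. T-bet, the product of Tbx21, is a T-box transcription factor best known from T helper and natural killer cells. The MEP had been sorted by flow cytometry from fresh marrow, and the labels used here give no treatment, sorting gate, age or knockout allele. In such bulk samples fewer cells of a type and less RNA per cell cannot be told apart.

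Mitochondria keep their own ribosome to translate the few proteins encoded in mitochondrial DNA, all of them subunits of the respiratory chain and ATP synthase. Its RNAs come from mitochondrial DNA, whereas its proteins are encoded in the nucleus, made in the cytosol and imported. About as many of these proteins have a counterpart in bacterial ribosomes as were added during the evolution of mitochondria, and the genes are active in nearly all cell types. Red cell precursors depend on mitochondria for heme synthesis, which ends in the mitochondrial matrix, and for respiration during their proliferation.

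Some properties of the arrays bear on all values below. Erythroid markers had high signal, with Gata1 at 10.97 ± 0.03 (knockout) against 10.96 ± 0.047 (wild type), Klf1 at 10.72 ± 0.038 (knockout) against 10.60 ± 0.11 (wild type) and the stem cell factor receptor gene Kit at 12.01 ± 0.019 (knockout) against 12.01 ± 0.06 (wild type) (SD, n = 3 per group). The platelet integrin gene Itga2b, a megakaryocyte marker, was at 7.25 ± 0.10 (knockout) against 7.59 ± 0.23 (wild type), with no overlap of the groups (limma, unadjusted p = 0.0449, adjusted p = 1). Of other megakaryocyte markers, Pf4 differed by -0.48, Vwf by -0.19 and Gp9 by -0.022 (knockout minus wild type, log2), all with overlapping groups. The part of these markers in the results was not tested. Per-array values are given in the order of replicates 1, 2 and 3 throughout. The targeted gene Tbx21 read 6.41, 6.60 and 6.46 on the knockout arrays and 6.54, 6.62 and 6.60 on the wild-type arrays, so the groups overlapped and the array gave no check of the genotype. Xist and Y-linked genes went against the statement of single mice. Knockout replicates 1 and 2 and wild-type replicate 1 had high Xist (11.79 to 11.83) together with Y-linked Eif2s3y (8.39 to 8.86), whereas wild-type replicate 2 had Xist alone and both replicates 3 Eif2s3y alone. Results are therefore also given without the 3 arrays that carried both, and p-values measure the spread between these 6 arrays. Signals of different probe sets are not comparable as amounts of RNA, so each gene is compared only with itself across arrays.

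Loss of T-bet was not accompanied by a detectable change in any gene of the mitochondrial ribosome. In limma's fit over all 41345 probe sets, 0 of the 71 genes passed an adjusted p of 0.05, where 0% of all 22180 genes passed. At an unadjusted p under 0.05 there were also 0 of 71, against 3.13% of all genes. Of the 12232 other genes whose mean signal lay in the range of the 71, 190 were under 0.05. These other genes share the range but were not matched on signal, with a median of 7.99 against 8.92 for the 71. The smallest unadjusted p of the 71 was 0.091, for Mrpl27. Differences ranged from -0.17 (Mrps14) to 0.24 (Mrpl27) on the log2 scale, with 28 above 0 and 43 below. Their median was -0.018, beside -0.0045 over all genes, and 58 of 71 lay within 0.1 of 0. A complete separation of the groups occurred in 1 gene, Mrpl23, which was lower in all knockout arrays. Over all genes 5.18% were separated with the knockout lower and 3.52% with the knockout higher.

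The arrays also limited how large a difference could have been. For 69 of the 71 genes the 95% interval excluded changes beyond 1.5-fold, beside 85.9% of all genes. Among the 12232 other genes in the same signal range the share with such an interval was 94.8%. For all 71 genes the interval excluded changes beyond 2-fold. The exceptions at 1.5-fold were Mrps14 (interval -0.62 to 0.28) and Mrps36 (-0.33 to 0.80). These bounds are on array signal and hold for the 1 probe set used per gene. None of the 71 was among the dim probe sets, meaning the lowest 30% by mean signal, against 26.5% of all genes. The largest differences in size, of Mrpl27, Mrps36 and Mrps14, were those of the genes of lowest mean signal, at 6.25, 6.45 and 6.67.

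**Figure D1:**
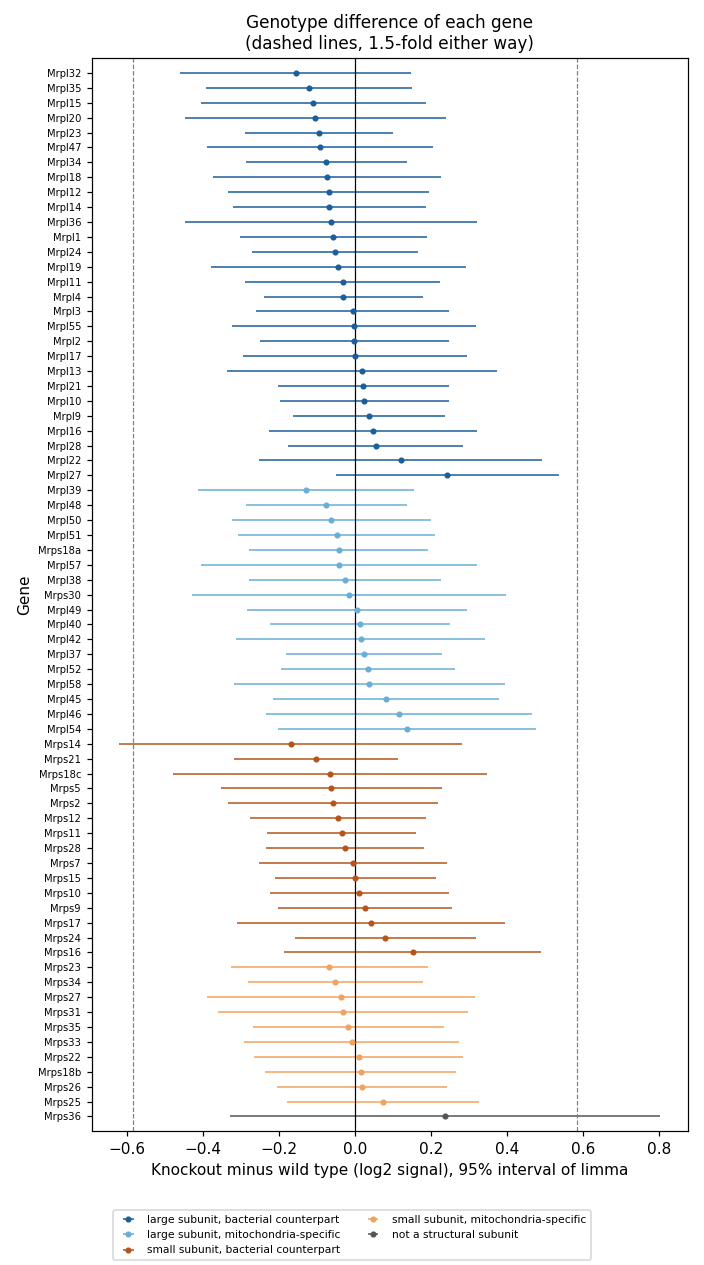
Genotype difference (knockout minus wild type, log2 signal) of each of the 71 genes, with limma's 95% interval as a bar and the dashed lines at 1.5-fold. Genes are grouped and coloured by subunit class, every interval crosses 0, and only those of Mrps14 and Mrps36 cross a dashed line.

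The sign of the small median shift depended on single arrays. It was 0.044 without knockout replicate 1 and 0.033 without wild-type replicate 2, with 47 and 52 of the 71 genes then above 0, and between -0.055 and -0.019 without each of the other 4 arrays. Without the 3 arrays that carried both Xist and Y-linked signal it was 0.038, with 40 of 71 genes above 0. Blocking on which of Xist and Y-linked signal an array carried gave 0.047, with 57 of the genes above 0. In that fit wild-type replicate 2, the only array with Xist alone, forms a block of its own and does not enter the difference. The number of genes past an adjusted p of 0.05 was 0 in each of these fits.

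What the 71 genes did show, on the probe sets used, was movement together from array to array within a genotype. Second probe sets, described below, did not all share it. Taking each gene's mean over the 6 arrays as its reference, the mean deviation was -0.12 in knockout replicate 1, 0.023 in knockout replicate 2 and 0.080 in knockout replicate 3. In wild-type replicates 1 to 3 it was -0.076, 0.12 and -0.026. Each genotype thus had a low array and a high one, and the groups overlapped in part, with knockout replicate 1 below all wild-type arrays and wild-type replicate 2 above all knockout arrays. The signal was lowest in knockout replicate 1 for 36 of 71 genes (50.7%, beside 26.7% of all genes that were not dim) and in wild-type replicate 1 for another 19 (26.8% beside 18.0%). It was highest in wild-type replicate 2 for 33 genes (46.5% beside 16.5%) and in knockout replicate 3 for 28 (39.4% beside 23.8%). The full pattern, below the gene's own mean in both replicates 1 and above it in knockout replicate 3 and wild-type replicate 2, was met by 49 of 71 genes (69.0%), beside 27.8% of the 12232 other genes in the same signal range. The pattern was read from these same 71 genes, so their higher share is in part built in and is no test. The other genes also had a lower median signal, 7.99 against 8.92, and the part of signal in the gap was not tested.

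**Figure D2:**
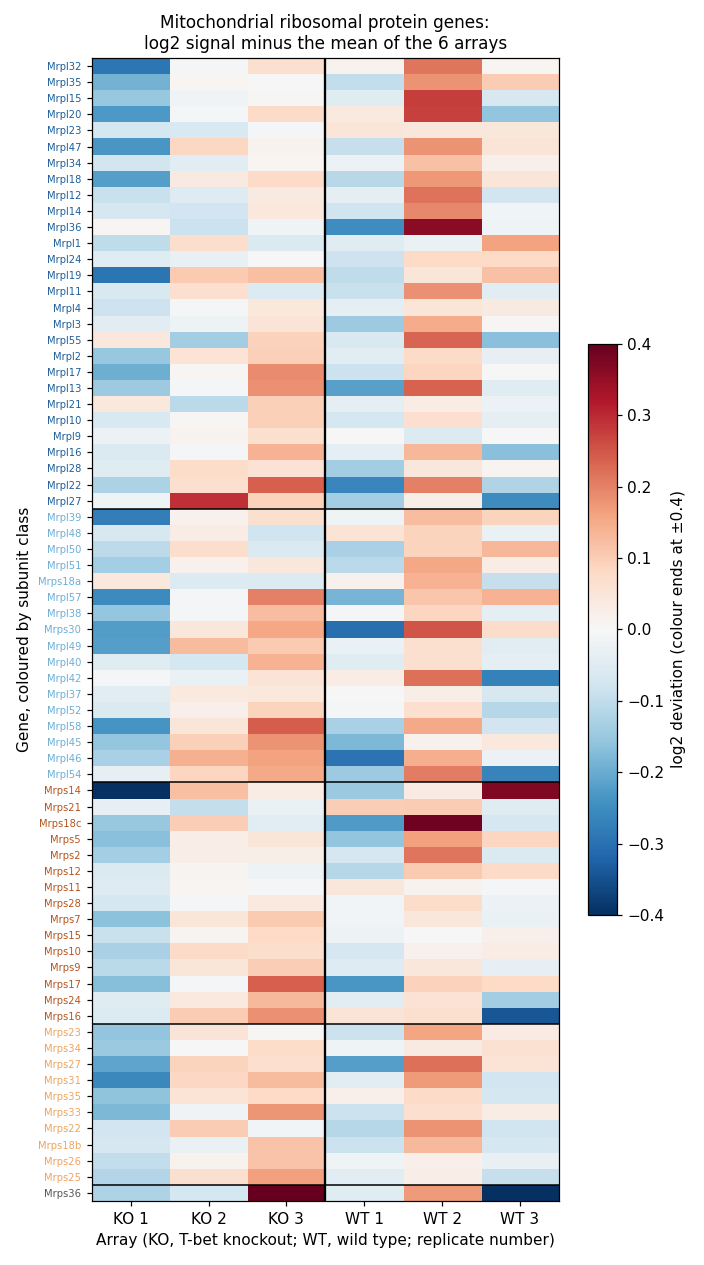
Deviation of the log2 signal of each of the 71 genes (rows, grouped and coloured by subunit class) from that gene's mean over the 6 arrays (columns), with red above and blue below the mean. Knockout replicate 1 and wild-type replicate 1 are mostly blue, and knockout replicate 3 and wild-type replicate 2 mostly red, in all 4 subunit classes.

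Deviations from the group means gave the same picture. All 71 genes correlated above 0 with the mean of the other 70 over the 6 arrays, with a median r of 0.828 and a range of 0.0954 to 0.980. Among pairs of genes, 93.0% of 2485 correlated above 0. For other genes in the same signal range, though of lower median signal, the median r with the mean of the 71 was 0.404, and 65.1% were above 0. These correlations rest on 6 arrays that share each array's RNA, labelling and scaling among all genes, so they are descriptions only. The closest followers were Mrpl22 (r = 0.980), Mrpl10 (0.970) and Mrpl58 (0.968). The loosest were Mrpl1 (0.0954), Mrps21 (0.143), Mrps18a (0.160) and Mrpl9 (0.167). Outside the family the most alike genes were Tm2d3, Xrcc6, a DNA end-binding protein gene of double-strand break repair, Gm14393, Zmym3 and Pgd, an enzyme of the pentose phosphate pathway, with r between 0.998 and 0.999.

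Several other measures moved over the same arrays. The median signal of all probe sets was 6.529, 6.453 and 6.442 in knockout and 6.514, 6.436 and 6.473 in wild-type replicates 1 to 3. Ranked by this median, the arrays stood in the reverse order of the mean deviations of the 71 genes. The 12232 other genes in the signal range had mean deviations of -0.034, 0.0015 and 0.023 in knockout and -0.024, 0.016 and 0.017 in wild-type replicates 1 to 3, of the same sign as the 71 genes in 5 of 6 arrays and smaller. After a further quantile normalization the mean deviations of the 71 genes were -0.082, 0.0048 and 0.039 for the knockout and -0.060, 0.11 and -0.012 for the wild type. On every array they were smaller in size than in the deposited values. Centring each array on its median gave -0.17, 0.045 and 0.11 for the knockout and -0.12, 0.16 and -0.025 for the wild type. These were larger in size than as deposited on all arrays but wild-type replicate 3. B cell markers, of which 7 of 8 were measured, went the other way in 4 arrays, with mean deviations of 0.20, -0.19 and 0.39 in knockout and 0.025, -0.42 and -0.0068 in wild-type replicates 1 to 3. Their mean signal ranged from 6.60 to 7.18 in knockout and from 6.37 to 6.81 in wild-type arrays, and 0 of 7 correlated above 0 with the mean of the 71. Granulocyte and monocyte markers (10 of 10 measured) ranged from 5.84 to 6.24 and from 5.88 to 6.01, and T and NK cell markers (8 of 8) from 6.28 to 6.51 and from 6.21 to 6.41. The 3 arrays with both Xist and Y-linked signal had mean deviations of -0.12, 0.023 and -0.076. The part of these measures in the movement of the 71 genes was not tested.

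**Figure D3:**
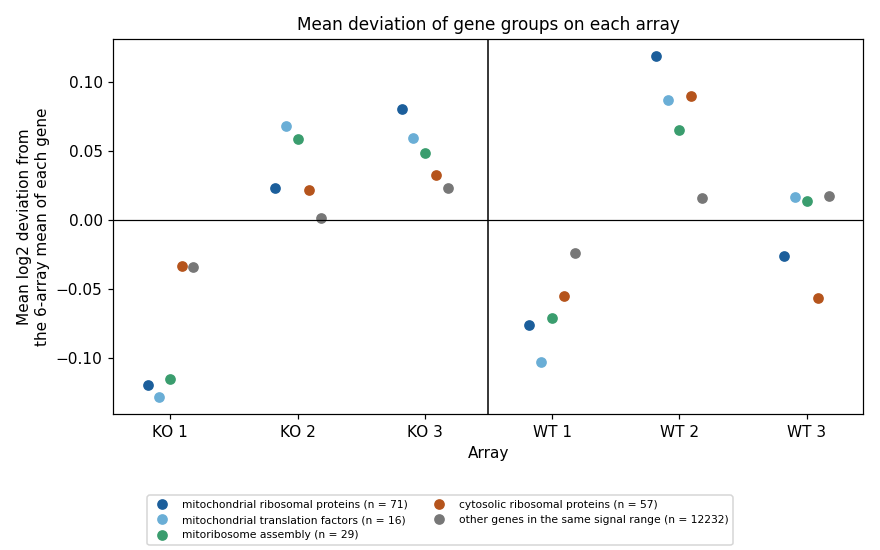
Mean deviation of 5 gene groups from each gene's 6-array mean (vertical axis, log2) on each array (horizontal axis), 1 point per group and array. The mitochondrial ribosomal proteins are lowest in knockout replicate 1 (-0.12) and highest in wild-type replicate 2 (0.12), and translation and assembly factors of mitochondria are likewise low in both replicates 1 and above 0 in knockout replicate 3 and wild-type replicate 2.

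The promoters of the 71 genes were read for motifs, from 250 bases before to 50 after the transcription start in a RefSeq table of GRCm38.p6. It held 62 of the 71 genes, and the first listed start was used. NRF1, GABPA (an ETS factor) and YY1 are known activators of nuclear genes for mitochondria. The NRF1 core CGCATGCG, which reads the same on both strands, was present in 7 of 62 promoters (11.3%), against 2.54% of 17492 protein-coding genes. The ETS core CCGGAAG was found on either strand in 22 (35.5% against 11.9%), and the YY1 core AAGATGGC in 12 (19.4% against 3.22%). Of the 62 promoters 34 held at least 1 of the 3 cores, 3 held the NRF1 and the ETS core, and 28 held none. A TATAAA box was listed in 4 (6.45% against 13.3%), and the median GC content was 58.2% against 56.3%. Promoters of cytosolic ribosomal proteins held the ETS core in 43.2% of 44 genes and the YY1 core in 2.27%. Cores were present also in promoters of genes that followed the family's mean loosely, among them Mrpl9 (NRF1), Mrps21 (ETS) and Mrps18a (ETS and YY1). No occupancy was measured here, so a match is a description of the letters.

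The 250 bases before the start are shown for genes whose promoters hold different cores, with matches of the 3 cores on either strand in capitals. Mrpl22 (chr11:58171414-58171663, plus strand) holds an ETS core 53 bases and an NRF1 core 32 bases before the start. Mrpl32 (chr13:14613038-14613287, minus strand) holds the NRF1 core at 86 and 23 bases and the YY1 core at 242 bases. Mrpl27 (chr11:94653541-94653790, plus strand), the gene of smallest unadjusted p, holds an ETS core at 55 bases. Mrpl10 (chr11:97041332-97041581, plus strand), a near neighbour of Tbx21, holds an NRF1 core at 135 bases. Mrps11 (chr7:78782881-78783130, plus strand) holds the YY1 core at 107 bases and lies next to the start of another of the 71 genes.
Mrpl22: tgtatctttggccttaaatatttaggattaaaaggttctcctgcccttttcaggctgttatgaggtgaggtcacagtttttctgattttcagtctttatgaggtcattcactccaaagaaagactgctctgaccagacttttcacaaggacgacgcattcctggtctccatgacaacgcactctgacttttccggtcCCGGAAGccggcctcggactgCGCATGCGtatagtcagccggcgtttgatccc
Mrpl32: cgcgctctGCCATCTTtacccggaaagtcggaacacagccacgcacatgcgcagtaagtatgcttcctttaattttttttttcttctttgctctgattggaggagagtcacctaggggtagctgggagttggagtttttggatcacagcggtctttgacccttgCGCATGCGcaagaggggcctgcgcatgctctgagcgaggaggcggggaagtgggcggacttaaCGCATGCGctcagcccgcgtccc
Mrpl27: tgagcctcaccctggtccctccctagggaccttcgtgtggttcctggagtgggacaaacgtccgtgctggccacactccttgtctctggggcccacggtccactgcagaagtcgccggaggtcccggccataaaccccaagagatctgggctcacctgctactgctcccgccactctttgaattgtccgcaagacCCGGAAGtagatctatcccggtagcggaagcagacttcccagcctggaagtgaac
Mrpl10: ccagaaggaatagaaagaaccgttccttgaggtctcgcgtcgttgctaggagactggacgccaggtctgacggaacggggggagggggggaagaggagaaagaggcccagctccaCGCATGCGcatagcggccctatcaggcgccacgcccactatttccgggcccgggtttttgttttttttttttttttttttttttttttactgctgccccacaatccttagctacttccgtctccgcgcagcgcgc
Mrps11: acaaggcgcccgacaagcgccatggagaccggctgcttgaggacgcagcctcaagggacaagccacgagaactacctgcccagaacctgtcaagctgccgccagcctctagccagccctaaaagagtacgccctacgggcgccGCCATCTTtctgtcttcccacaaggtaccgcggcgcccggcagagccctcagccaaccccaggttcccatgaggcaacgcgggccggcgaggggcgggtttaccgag

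Mrps11 and Mrpl46 lie head to head on chromosome 7 with 42 bases between their starts, the only such pair found among these windows. Mrps11, a small-subunit protein of the mRNA exit platform, hardly varied, at 8.87, 8.93 and 8.91 on the knockout arrays and 8.96, 8.93 and 8.91 on the wild-type arrays. Mrpl46, a mitochondria-specific large-subunit protein, spread further, at 7.32, 7.59 and 7.60 on the knockout arrays and 7.15, 7.59 and 7.42 on the wild-type arrays. Their deviations correlated at r = 0.065 over the 6 arrays, a value near 0 for genes that share a promoter region. The differences between genotypes were -0.035 (SE 0.082) and 0.11 (SE 0.15).

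The large subunit, which holds the peptidyl transferase centre and the exit tunnel, was represented by 45 genes, including Mrps18a and Mrps30, whose products are now placed in the large subunit. Of these 17 were above and 28 below 0, with a median of -0.026. The 28 genes with a bacterial counterpart had a median of -0.038 with 8 above 0, and the 17 mitochondria-specific genes a median of 0.0056 with 9 above 0. In each class 0 genes had an unadjusted p under 0.05.

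Mrpl27, which lies close to the peptidyl transferase centre, had the largest difference and the lowest mean signal, 6.25, of the 71. It read 6.23, 6.54 and 6.34 on the knockout arrays and 6.11, 6.27 and 6.00 on the wild-type arrays. The knockout arrays lay higher on average but overlapped with wild-type replicate 2. The difference was 0.24 (SE 0.12, 95% interval -0.051 to 0.54), and limma's adjusted p was 1, with 0.2 by a 2-sided exact permutation test that cannot go below 0.1 here. It was above 0 in all 16 alternative fits, from 0.16 to 0.32, and was the only one of the 71 with an unadjusted p under 0.05 in any of them, at 0.034 with array weights (adjusted p = 0.698).

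Mrpl23, a protein of the tunnel exit, was the single gene without overlap. Its signal was 8.78, 8.79 and 8.85 on the knockout arrays and 8.91, 8.90 and 8.90 on the wild-type arrays. The wild-type values were nearly identical and all knockout values lay beneath them. The difference was small, -0.095 (SE 0.082, 95% interval -0.29 to 0.10), with a limma adjusted p of 1 and the smallest exact permutation p the design allows, 0.1.

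Other large-subunit genes with a bacterial counterpart with the most negative differences were Mrpl32, Mrpl35 and Mrpl15. Mrpl32, a zinc-binding protein matured by a protease of the inner membrane, read 8.41, 8.69 and 8.76 on the knockout arrays and 8.71, 8.91 and 8.71 on the wild-type arrays. Knockout replicate 1 was low and wild-type replicate 2 high, and the groups overlapped. The difference was -0.16 (SE 0.13), or -0.050 without knockout replicate 1 and -0.089 without wild-type replicate 2, and those of Mrpl35 and Mrpl15 were -0.12 (SE 0.11) and -0.11 (SE 0.12). Mrpl22, which lines the exit tunnel, read 7.49, 7.69 and 7.86 on the knockout arrays and 7.36, 7.82 and 7.50 on the wild-type arrays and differed by 0.12 (SE 0.16). In both groups replicate 1 was the lowest array.

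The stalk that recruits translation factors is built from Mrpl10, Mrpl11 and Mrpl12. Mrpl12, which also binds the mitochondrial RNA polymerase, read 9.03, 9.07 and 9.15 on the knockout arrays and 9.08, 9.33 and 9.04 on the wild-type arrays, with a difference of -0.069 (SE 0.11). Mrpl11 differed by -0.033 (SE 0.11) and Mrpl10 by 0.024 (SE 0.093). Wild-type replicate 2 was the highest of the wild-type arrays for all 3. Mrpl3, part of the catalytic core, read 9.16, 9.18 and 9.25 on the knockout arrays and 9.05, 9.35 and 9.21 on the wild-type arrays, and its difference was -0.0066 (SE 0.11).

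Among mitochondria-specific large-subunit genes, Mrpl39 was the lowest at -0.13 (SE 0.12, 95% interval -0.41 to 0.16) and Mrpl54 the highest at 0.14 (SE 0.14, 95% interval -0.20 to 0.48). Without knockout replicate 1 the difference of Mrpl39 was -0.024. Mrpl58, a peptidyl-tRNA hydrolase that became part of the ribosome, read 8.69, 8.97 and 9.17 on the knockout arrays and 8.79, 9.08 and 8.85 on the wild-type arrays. It differed by 0.038 (SE 0.15). Mrpl45, which anchors the ribosome near the inner membrane, differed by 0.08 (SE 0.12). Mrps30 read 9.01, 9.28 and 9.39 on the knockout arrays and 8.93, 9.48 and 9.30 on the wild-type arrays, with wild-type replicates 1 and 2 at the ends, and differed by -0.015. Mrpl52 differed by 0.035 (SE 0.10).

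The small subunit, which binds mRNA and reads the codon, was represented by 25 genes, 10 above and 15 below 0, with a median of -0.018. Its 15 genes with a bacterial counterpart had a median of -0.026 and its 10 mitochondria-specific genes one of -0.013. Mrps12, of the decoding centre, differed by -0.045 (SE 0.10), Mrps2 by -0.058 (SE 0.12) and Mrps5 by -0.063 (SE 0.12). Mrps16, mutated in a human respiratory chain disorder, read 8.12, 8.28 and 8.36 on the knockout arrays and 8.23, 8.24 and 7.83 on the wild-type arrays. Its wild-type replicate 3 was low and the other 5 arrays lay close together, with a difference of 0.15 (SE 0.14, 95% interval -0.19 to 0.49) that was 0.018 without that array. Mrps22 and Mrps34, also linked to human mitochondrial disease, differed by 0.0091 (SE 0.11) and -0.052 (SE 0.10).

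Mrps14 and Mrps21 had the most negative differences of the small subunit. Mrps14 read 6.26, 6.78 and 6.70 on the knockout arrays and 6.52, 6.70 and 7.04 on the wild-type arrays. It ran from a low knockout replicate 1 to a high wild-type replicate 3, and its within-group SD of 0.27 was the second largest of the 71. The difference was -0.17 (SE 0.19, 95% interval -0.62 to 0.28), and it was -0.010 without knockout replicate 1 and -0.027 without wild-type replicate 3. Mrps21 read 8.34, 8.28 and 8.35 on the knockout arrays and 8.47, 8.48 and 8.33 on the wild-type arrays, a difference of -0.10 (SE 0.091), with wild-type replicate 3 falling among the knockout values.

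Mammals have 3 relatives of the bacterial protein S18, and each takes a different place in the mitochondrial ribosome. Mrps18c read 7.44, 7.69 and 7.55 on the knockout arrays and 7.37, 7.98 and 7.53 on the wild-type arrays. Mrps18b was at 9.85, 9.89 and 10.03 on the knockout arrays and 9.83, 10.04 and 9.85 on the wild-type arrays. Mrps18a read 8.97, 8.87 and 8.88 on the knockout arrays and 8.94, 9.07 and 8.84 on the wild-type arrays. The differences were -0.066 (SE 0.17), 0.015 (SE 0.11) and -0.043 (SE 0.10). On the probe sets used, wild-type replicate 2 was the highest array in all 3 genes. The order of the remaining arrays was not shared. A second probe set of Mrps18c, of lower mean signal, was highest in knockout replicate 1 (7.16) and read 6.74 in wild-type replicate 2. That of Mrps18b was highest in wild-type replicate 2 (9.49).

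Mrps36 carries a ribosomal name, although its product is now known as a subunit of the oxoglutarate dehydrogenase complex of the citric acid cycle. It had the largest within-group SD of the 71, 0.35. Its signal was 6.33, 6.38 and 7.01 on the knockout arrays and 6.41, 6.62 and 5.98 on the wild-type arrays. Knockout replicate 3 was the highest and wild-type replicate 3 the lowest array, and the groups overlapped. The difference of 0.24 (SE 0.24, 95% interval -0.33 to 0.80) was 0.71 without the 3 arrays of mixed Xist and Y-linked signal, where knockout replicate 3 is the single knockout array. It was 0.021 without that array and 0.057 without wild-type replicate 3. Leaving Mrps36 out gave a median of -0.022 for the other 70 genes.

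**Figure D4:**
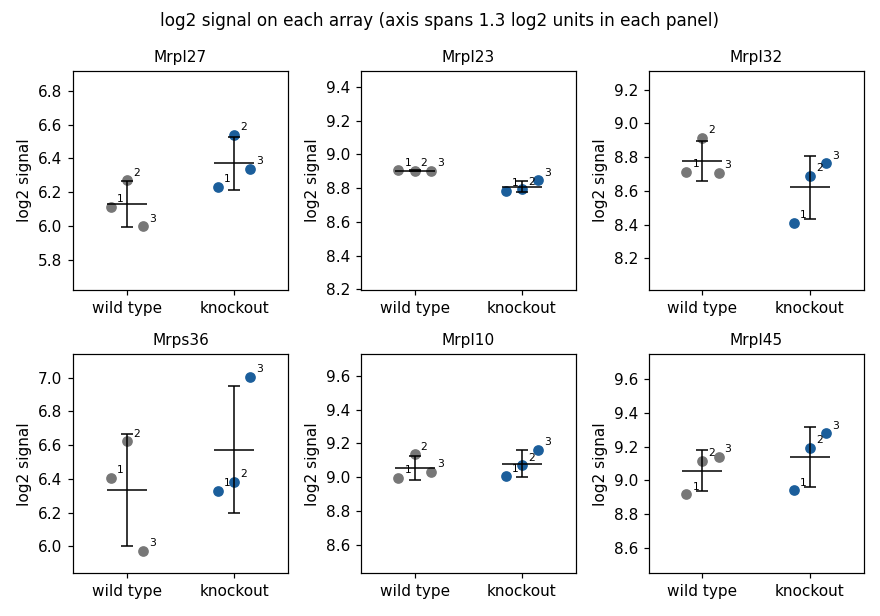
log2 signal of 6 genes on each array, with the replicate number beside each point, the group mean as a horizontal bar and the SD (n = 3) as an error bar, all panels on the same span. Groups overlap in 5 of 6 genes, whereas Mrpl23 separates by a small step, and Mrps36 has the widest spread.

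Chromosome 11, which carries Tbx21, held 11 of the 71 genes (15.5%, beside 7.5% of all placed genes). In the gene order of RefSeq (GRCm38.p6), 1 protein-coding gene lies between Mrpl10 and Tbx21, 3 lie between Tbx21 and Mrpl45, and 61 separate Tbx21 from Mrpl27. Mrpl10 read 9.004, 9.07 and 9.16 on the knockout arrays and 8.997, 9.13 and 9.03 on the wild-type arrays, and the groups overlapped. Mrpl45 read 8.94, 9.19 and 9.28 on the knockout arrays and 8.92, 9.12 and 9.14 on the wild-type arrays, with replicate 1 lowest in both groups. The remaining 8, from Mrps23 to Mrps24, had differences between -0.069 (Mrpl12) and 0.12 (Mrpl22). The median of the 11 was 0.024, with 6 above 0 and 0 at an unadjusted p under 0.05. On chromosome 17 there were 8 members and on chromosomes 12 and X there were 0.

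A second probe set existed for 9 genes and gave another reading of the gene, by the rule always at a lower mean signal. The second read 6.80 against 9.26 in Mrps5, 6.16 against 7.89 in Mrpl36 and 6.32 against 9.12 in Mrpl12. In Mrps18b it read 9.32 against 9.91. Of the second probe sets, 0 were among the dim ones. The 2 probe sets had the same sign of difference in 3 of the 9. Mrps5 differed by -0.063 with the first and 0.20 (SE 0.12) with the second, Mrpl36 by -0.063 and 0.21 (SE 0.17), and Mrps18b by 0.015 and -0.12 (SE 0.096). In Mrpl12 the values were -0.069 and 0.13, and in Mrps17 0.042 and 0.29 (SE 0.25). Of the second probe sets 0 had an unadjusted p under 0.05. The bounds at 1.5-fold and 2-fold given above came from the first probe sets only, whereas the SE of the second reached 0.25 in Mrps17. For the other 6 genes the sign thus depended on the probe set read.

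A list of 8 genes taken as mitoribosome genes under other names held 4 measured ones, of which 0 had an unadjusted p under 0.05. Ict1 and Mrp63, also listed, are counted above as Mrpl58 and Mrpl57. Dap3, a GTP-binding small-subunit protein, read 8.86 ± 0.072 (knockout) against 8.84 ± 0.068 (wild type), Ptcd3 differed by -0.046 and Gadd45gip1 by 0.14. Lactb, whose place in the ribosome was not checked here, differed by 0.030. Of 16 measured translation factors of mitochondria (18 listed) 9 were above and 7 below 0, with a median of 0.0068 and 0 at an unadjusted p under 0.05. The elongation factor genes Tufm and Tsfm differed by -0.048 and -0.11, Letm1 by -0.067, and the recycling factor gene Mrrf by 0.042. Of 29 measured genes for mitoribosome assembly and rRNA modification (30 listed) 13 were above and 16 below 0, with a median of -0.021, and 0 had an unadjusted p under 0.05. The rRNA methyltransferase gene Mrm3 differed by 0.16, Mettl17 by -0.091 and Rpusd3 by 0.078.

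Mitochondrial aminoacyl-tRNA synthetases charge the tRNAs this ribosome uses, and their list here also holds the tRNA amidotransferase subunit genes Qrsl1, Gatb and Gatc. The list had a median of -0.0091 over 21 measured genes of 22, with 9 above 0 and 0 at an unadjusted p under 0.05. The groups did not overlap in 2 of the 21, both lower in the knockout, beside 5.18% of all genes. Aars2 read 8.07 ± 0.11 (knockout) against 8.20 ± 0.026 (wild type) and Vars2 8.79 ± 0.038 (knockout) against 8.91 ± 0.058 (wild type), while Iars2 differed by 0.15. Mitochondrial transcription and DNA maintenance genes (18 of 18 measured) had a median of -0.0072 and 1 gene at an unadjusted p under 0.05, beside 3.13% of all genes. It was Mterf1b, a transcription terminator gene, at 4.12 ± 0.48 (knockout) against 4.81 ± 0.33 (wild type), a dim probe set (limma adjusted p = 1). Its paralog Mterf1a differed by 0.26 in the other direction. In 2 of the 18, Tefm (-0.12) and Trmt10c (-0.08), the knockout arrays lay below all wild-type arrays. Regulators of mitochondrial biogenesis (11 of 11 measured) had a median of 0.015, with Esrra at -0.10, Yy1 at 0.07 and Gabpb2 at 0.042. The 15 listed genes encoded in mitochondrial DNA were not analysed here.

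The pathway genes shared the array pattern to different degrees. Median r with the mean of the 71 genes was 0.802 for the translation factors, 0.760 for the aminoacyl-tRNA synthetases, 0.760 for transcription and DNA maintenance and 0.694 for assembly, and 0.104 for the regulators of biogenesis. For 57 cytosolic ribosomal protein genes it was 0.502, and their mean deviations were -0.033, 0.022 and 0.033 for the knockout and -0.055, 0.090 and -0.056 for the wild type. The sign was that of the 71 genes on all 6 arrays, but the lowest cytosolic values came from wild-type replicates 1 and 3 and not from knockout replicate 1. Between genotypes the cytosolic set had a median difference of 0.011, with 32 of 57 above 0 and 0 at an unadjusted p under 0.05. A difference between both sets was not tested.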

How the data were processed

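RNA of 6 sorted MEP samples was hybridised to Affymetrix arrays, 1 array per sample. The authors deposited log2 signals of 41345 probe sets. The submitters' processing notes name Affymetrix Expression Console 1.4.1.46. Its settings for background and normalization were not given in the sources used here, and the log2 scale was inferred from the range of the values, up to 14.2. Detection calls were not used, so background is unknown, and the number of arrays limits the precision. Array medians lay between 6.44 and 6.53 and arrays correlated at 0.980 to 0.987, so values were used as deposited.

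Probe sets were named from the platform's annotation: 23521 had 1 symbol, 1814 several and 16010 none. Of the 23521, 23328 were held in RefSeq's GRCm38.p6 table, which gave chromosomes and gene order. Differences are knockout minus wild type from limma 3.58.1 (lmFit, eBayes) in R 4.3.3, fitted on all probe sets with Benjamini-Hochberg adjustment and a threshold of 0.05. SE and 95% intervals are limma's and ± is the SD of 3 arrays. The fit was tested on simulated data.

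The 71 genes and the lists were chosen with earlier results of these data known, so lists are described by counts and medians. Genes named individually were drawn from the 8 of smallest p in each direction, the 6 of highest and of lowest mean, the 5 of largest within-group SD, genes of known role, genes on chromosome 11, the 3 of smallest p in each list and the 5 most alike genes outside the family. Others, such as the loosest followers Mrpl1 and Mrpl9, were named after their values were seen. Group and replicate number came from the sample titles.

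Same-numbered arrays were checked for pairing. Deviations from the group means correlated at 0.285, 0.116 and 0.115 for numbers 1, 2 and 3 over 22180 genes, all above 0.1, so the numbers were treated as pairs in an alternative fit with a replicate block. Over the 71 genes alone they were 0.300, -0.169 and -0.129. Alternatives were other scalings, limma-trend, array weights, filters, blocks, the mean of all probe sets of a gene and leaving out each array.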

Additional observations from a re-analysis of the deposited data

How the results depend on the processing

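The count of 0 of 71 genes past an adjusted p of 0.05 was obtained in all 16 alternatives, including 0 with the replicate number as a replicate block, and the block changed no call. At an unadjusted p under 0.05 the count was above 0 only with array weights, where it was 1 (Mrpl27). In that fit 4.88% of all genes were under 0.05. The median difference of -0.018 moved by less than the SD of the array means within groups, 0.10, in all 16, but it was above 0 in 4 of them, namely 0.047 when blocking on the Xist and Y-linked signal carried, 0.038 without the 3 arrays of mixed signal, 0.044 without knockout replicate 1 and 0.033 without wild-type replicate 2. Wild-type replicate 2 does not enter the difference in the fit with that block, which is therefore not independent of the fit without that array. The median was -0.036 after a further quantile normalization. Of 40 genes followed through the alternatives, 17 kept the sign of their difference in all 16 and 23 took both signs. Mrpl27, Mrpl23, Mrpl32 and Mrps36 were among the 17. Some of the 16 fits could not change a difference of the 71 genes. They were limma-trend, the filters for dim probe sets and for 1 symbol, and the balanced replicate block. For a gene with 1 probe set the mean of all its probe sets could not either. Signs and medians kept in these fits were fixed in advance. In 5 genes (Mrpl23, Mrpl38, Mrps15, Mrps25 and Mrps36) the difference moved by more than the within-group SD, in each case without the 3 arrays of mixed signal, a fit with 1 knockout array that is assumed to vary like the others. With 3 arrays per group exact tests cannot reach 0.05, and no detection calls were used, so bounds hold for signal and not for RNA.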
